A study of Mus musculus with 4 samples.

Results

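Chaperones are proteins that help other proteins fold, keep damaged ones from clumping and pass those beyond repair on for degradation. In the cytosol, heat or misfolded protein frees heat shock factor 1 (Hsf1), which binds heat shock elements in promoters and switches on the inducible members, while constitutive members such as Hspa8 and Hsp90ab1 are made all the time. Mitochondria and the endoplasmic reticulum (ER) have chaperones of their own, and the ER set answers to the unfolded protein response, whose factors act through the ER stress element. Tumour cells commonly carry high chaperone levels.

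The members are 39 genes, chosen by name as the chaperones, co-chaperones and heat shock factors of a fixed list, out of 43432 genes in the deposited count table. They were divided by the known site and control of their products into 12 stress-induced cytosolic genes, 12 constitutive cytosolic genes and co-chaperones, 3 mitochondrial genes, 10 ER genes and 2 heat shock factors. All 39 had enough counts to be tested. RNA was sequenced from 4 subcutaneous tumours of 9464D-GD2, a mouse neuroblastoma line that displays the ganglioside GD2, in female C57BL/6 mice. In 1 group, 2 mice had received dinutuximab, an antibody against GD2, at 25 µg. In the other, 2 mice had received the same dose together with 20 µg of small extracellular vesicles (sEVs) derived from 9464D-GD2 cells. Both groups were dosed 2 times a week for 5 treatments, so the comparison is of added sEVs on a shared antibody background, with no untreated tumour. The labels give no age, describe 1 cell line, and number the tumours 3 and 4 in each group; they are called dinutuximab 3 and 4 and sEV 3 and 4 here. Nothing says that the tumours came from separate litters, cages or days, and p-values measure only the spread between these 4 samples.

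The libraries held between 24452699 and 28187573 counts, and the members took 1.56% of the counts in dinutuximab 3, 1.42% in dinutuximab 4, 1.34% in sEV 3 and 1.49% in sEV 4. Tumour sEV 3 stood apart from the rest: on the first principal component of all tested genes, which held 45.3% of the variance, it scored 25.4 and the other 3 scored between -14.1 and -3.78. Of the neuroblastoma markers, Hand2 (145 to 172 CPM, the count scaled to library size), Mycn (133 to 162 CPM) and Isl1 (15.7 to 21.4 CPM) were present in every tumour. Dbh, an enzyme of noradrenaline synthesis, had 0 counts in all 4 tumours, which allows at most 0.104 to 0.123 CPM, and Th and Phox2a stayed at or below 0.123 CPM. Levels come from whole tumours, in which fewer cells of a type and less RNA per cell cannot be told apart.

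Promoters were read because the classes rest in part on how their genes are known to be switched on. The elements found in each class are therefore not a separate check of the classes. RefSeq promoter windows (GRCm38.p6, from 250 bases before to 50 bases after a gene's start) matched 32 of the 39 members. They were searched on both strands for a heat shock element of 2 units (GAA and TTC, in either order, with any 2 bases between) and for the ER stress element (CCAAT, any 9 bases, then CCACG); a longer heat shock element also counts as one of 2 units, and the ER stress element always holds a CCAAT box. A 2-unit heat shock element stood in 9 of 10 matched stress-induced members, 2 of 10 constitutive members, both matched mitochondrial members and 0 of 9 ER members, beside 17% of all 27025 genes with a window. The ER stress element stood in 6 of 9 ER members and in no matched member of the other classes, beside 0.137% of all genes. A match is a run of letters and not a measured binding site. The 8 stretches below were chosen to show both elements, which are in capitals.

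Hspa1a and Hspa1b, the paired inducible HSP70 genes, share 1 stretch letter for letter, at chr17:34972208-34972305 and chr17:34959290-34959387, both on the minus strand, with a 2-unit element 104 to 97 bases before the start. The whole 250 bases before their starts differ at 3 positions. Hsph1 (chr5:149636351-149636380, minus) and Dnajb6 (chr5:29735844-29735873, plus) show elements of 2 and 3 units. A window of Hsph1 also holds a 3-unit element, which does not lie wholly before the start and is not shown. Hspe1 (chr1:55088053-55088082, plus) holds 4 units, a form found in 8 of the 27025 genes, and the same bases lie in a window of its head-to-head neighbour Hspd1.
Hspa1a and Hspa1b: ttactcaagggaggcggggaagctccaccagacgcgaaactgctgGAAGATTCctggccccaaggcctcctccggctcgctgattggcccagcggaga
Hsph1: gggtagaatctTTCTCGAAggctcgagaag
Dnajb6: agctccgaGAATCTTCCGGAAcgctagacc
Hspe1: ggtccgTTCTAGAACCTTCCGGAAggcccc

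The ER stress elements of Hspa5 (chr2:34772020-34772049, plus), Hsp90b1 (chr10:86705593-86705694, minus) and Calr (chr8:84847030-84847138, minus) are shown next, with that of Calr in the reverse orientation. All 3 genes code for abundant ER chaperones.
Hspa5: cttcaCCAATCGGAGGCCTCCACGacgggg
Hsp90b1: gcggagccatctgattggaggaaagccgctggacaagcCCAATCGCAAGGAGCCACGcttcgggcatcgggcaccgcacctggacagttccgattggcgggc
Calr: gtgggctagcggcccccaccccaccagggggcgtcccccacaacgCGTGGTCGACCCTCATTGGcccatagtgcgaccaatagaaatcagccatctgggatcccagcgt

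Per kilobase of exon, the constitutive HSP90 gene Hsp90ab1 was the most abundant member, at a mean of 1157 CPM per kilobase over the 4 tumours. It was followed by the constitutive HSP70 gene Hspa8 at 462 and by Calr at 368. Mitochondrial Hspa9 (234) and ER Hspa5 (241) lay close together, and their ranges over the 4 tumours overlapped in the plot of levels. All the stress-induced genes were lower than these 5.  Some constitutive members were low too, such as Hspa12a (3.12) and Dnajb6 (4.75), below stress-induced Dnajb1 (28.6). Hsp90aa1 led the stress-induced genes at 77.7 CPM per kilobase, while Hspa1b stood at 4.03, Hspa1a at 0.986 and Hspb1 at 0.971. Among the cytosolic HSP70 genes, the counts were thus mostly those of the constitutive form. Hspa1a and Hspa1b are nearly identical, and reads that fit both may have been left out, so their levels may be too low.

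**Figure D1:**
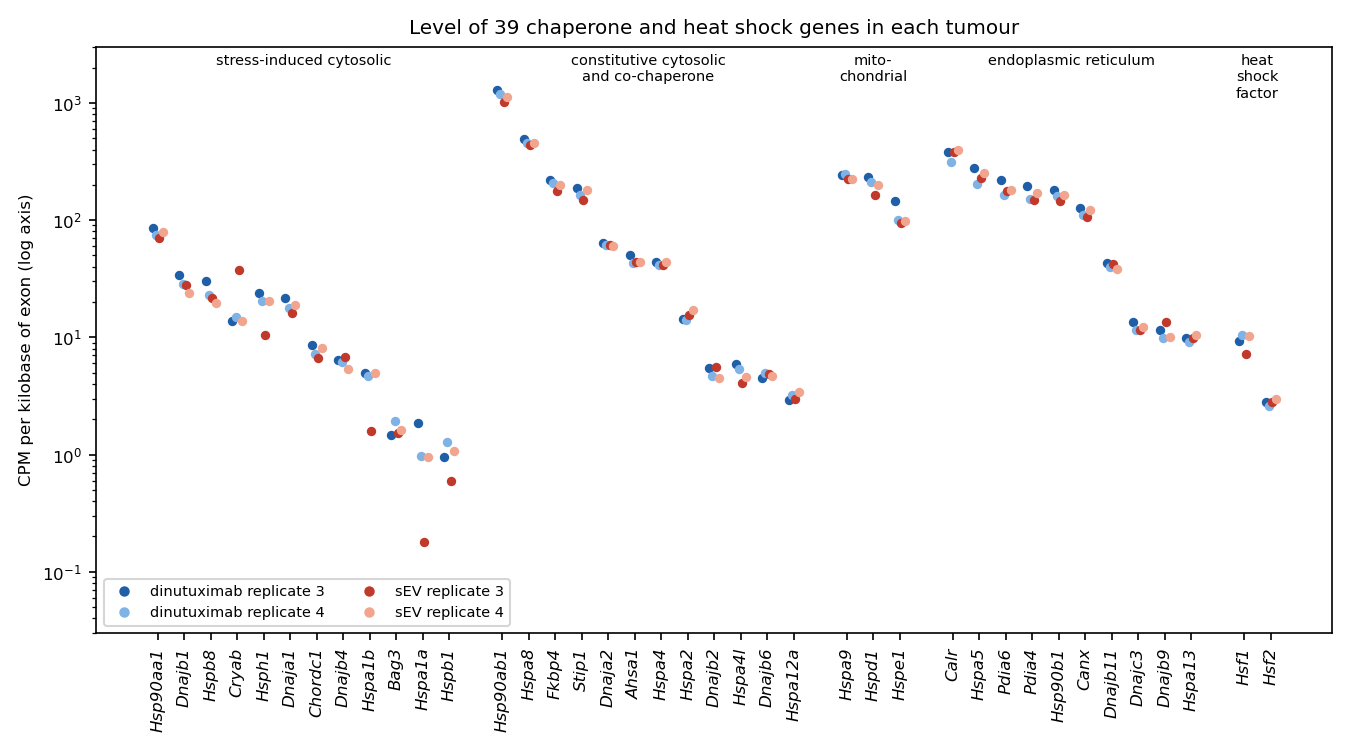
Level of each of the 39 members in each tumour, in CPM per kilobase of exon on a log axis, ordered by class and by mean level. Points are single tumours; Hspa1a, Hspa1b, Hsph1 and Cryab are the members whose point for sEV 3 lies farthest from the other 3.

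No member differed between the groups at an adjusted p under 0.05 in edgeR's quasi-likelihood test with Benjamini-Hochberg adjustment over 13823 genes; the lowest adjusted p of a member was 0.804. The same test called 0% of all genes, in either direction. DESeq2 and limma-voom also called 0 members, beside 17 genes higher and 38 lower among all 13823 with DESeq2 and 0 with limma-voom. At an unadjusted p under 0.05, 2 members were lower with sEVs (Hspa4l and Hspb8) and 0 were higher, beside 3.10% lower and 2.47% higher among all genes. The log2 fold changes of the members, sEV over dinutuximab, lay below 0 in 30 of 39, 1 of them at 0.00 when rounded, with a median of -0.10, beside 49.7% and a median of 0.00 for all genes. Both sEV tumours lay below both dinutuximab tumours in 9 members, and above them in 2, beside 16.5% and 18.1% of all genes. All members were read in the same 4 tumours, so these counts describe the list and were not tested.

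**Figure D2:**
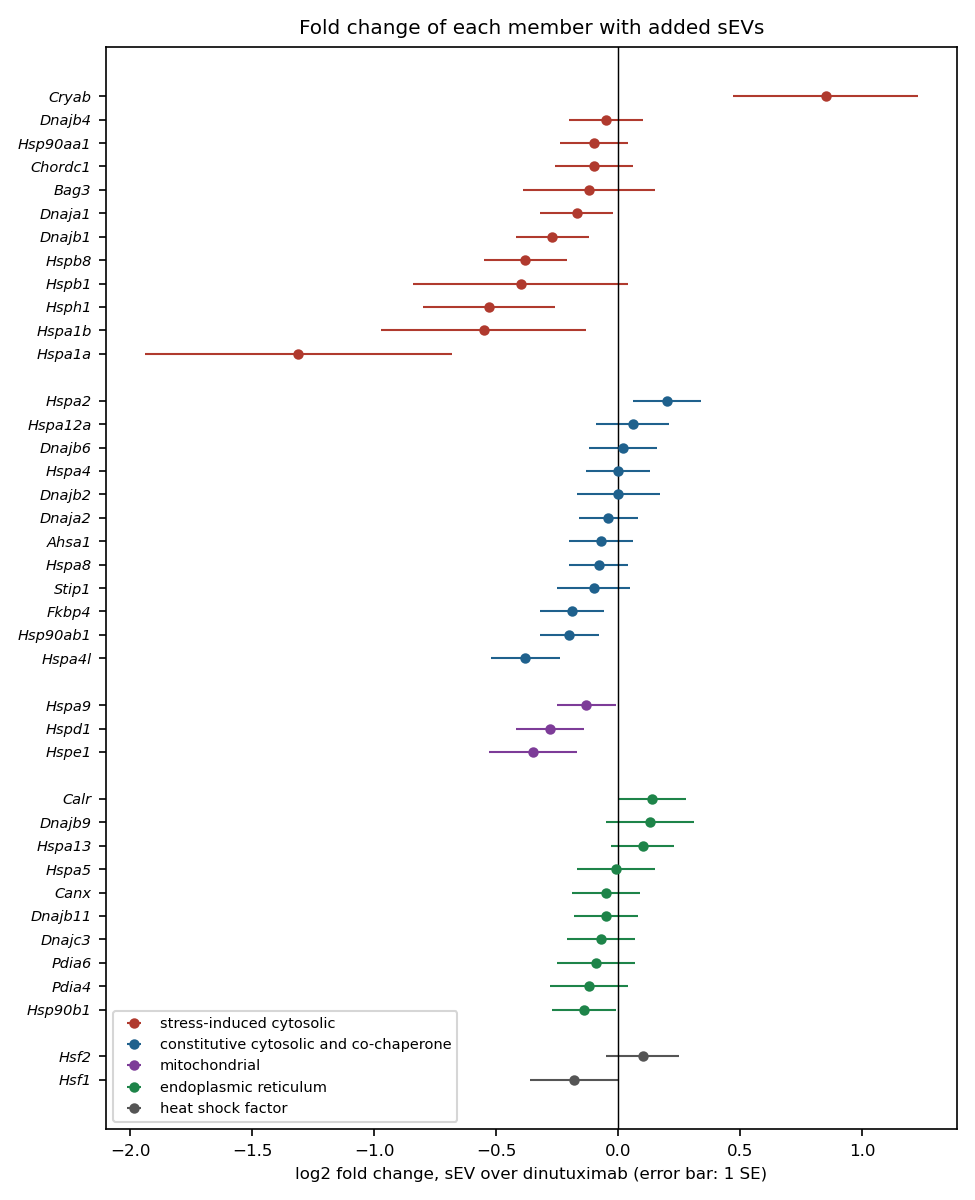
Log2 fold change of each member, sEV group over dinutuximab group, from edgeR. Bars are 1 standard error worked back from the F test, and colours are classes. Values run from -1.31 for Hspa1a to 0.85 for Cryab, and none passed the adjusted threshold.

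The stress-induced cytosolic members had a median log2 fold change of -0.22, and 11 of 12 lay below 0, beside 49.7% of all genes. Hspa1a (ENSMUSG00000091971) had 5.5 CPM in dinutuximab 3, 2.87 in dinutuximab 4, 0.535 in sEV 3 and 2.81 in sEV 4, from 141, 70, 14 and 81 counts. Tumour sEV 3 was low, the other sEV tumour had nearly the level of dinutuximab 4, and the log2 fold change was -1.31 ± 0.63 (SE; adjusted p = 0.887 in edgeR). Hspa1b (ENSMUSG00000090877) had 14 and 13 CPM in the dinutuximab tumours, 4.47 in sEV 3 and 13.8 in sEV 4, so that sEV 3 alone was low (-0.55 ± 0.42). The transcripts of this pair match at 99.2% over 2201 bases, and how reads were divided between them is uncertain; with their counts summed the log2 fold change was -0.70 ± 0.44.

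Hsph1 (ENSMUSG00000029657), the HSP110 nucleotide exchange factor that resets HSP70, was also lowest in sEV 3 and highest in dinutuximab 3. Its levels were 173, 147, 75.4 and 147 CPM in dinutuximab 3, dinutuximab 4, sEV 3 and sEV 4, with a log2 fold change of -0.53 ± 0.27. Without sEV 3 the values of Hspa1a, Hspa1b and Hsph1 became -0.59, 0.03 and -0.13. Without sEV 4, which leaves sEV 3 as the lone sEV tumour, they became -2.96, -1.59 and -1.09, with adjusted p = 1.6e-05, adjusted p = 5.53e-05 and adjusted p = 0.000153 in edgeR. That fit called 1.13% of 14179 genes higher and 1.10% lower. The size of these differences therefore turned on which sEV tumour was kept. With both kept, Hspa1a and Hsph1 also passed in the edgeR fit with no filter on low counts, and Hspa1b did not (adjusted p = 0.0115, 0.0441 and 0.426).

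Hspb8, a small heat shock protein that works with Bag3 to send misfolded protein to autophagy, was 59.4 and 45 CPM in the dinutuximab tumours and 42.0 and 38.3 CPM in sEV 3 and 4. The groups did not overlap, by a narrow margin, and the log2 fold change was -0.38 ± 0.17. Dnajb1, the J-domain partner of inducible HSP70, had 110 and 90.5 CPM against 89.6 and 76.8 CPM (-0.27 ± 0.15), again without overlap. In both genes sEV 4 was the lowest tumour, unlike the HSP70 pair, and without dinutuximab 3 the values were -0.17 for Hspb8 and -0.12 for Dnajb1. Hsp90aa1, the inducible HSP90, had 339, 293, 276 and 314 CPM, and its groups overlapped (-0.10 ± 0.14).

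Cryab (ENSMUSG00000032060), the small heat shock protein alpha-B crystallin, was the only stress-induced member with a higher mean in the sEV group. It had 20.3 and 21.9 CPM in the dinutuximab tumours, 56.0 CPM in sEV 3 and 20.3 CPM in sEV 4. One tumour carried the whole difference of 0.85 ± 0.38, which became -0.07 without sEV 3 and 1.41 (adjusted p = 1.38e-08 in edgeR) without sEV 4. Cryab and its neighbour Hspb2 overlap on opposite strands over 17% of the exon bases of Cryab, as do Dnaja1 and Smu1 over 7.05% of Dnaja1, and the strand setting of the counting is not given in the sources used here. The other 5 members, Hspb1, Dnaja1, Dnajb4, Bag3 and Chordc1, had log2 fold changes between -0.40 and -0.05, and the groups overlapped in each.

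Muscle also makes small heat shock proteins, so its markers were read beside them. The 9 skeletal muscle markers summed to 14.4, 18.7, 10.7 and 5.89 CPM in dinutuximab 3, dinutuximab 4, sEV 3 and sEV 4; 6 of 9 passed the filter, and Mb and Ttn were at 0 counts in dinutuximab 3 and sEV 3. The 6 smooth muscle and pericyte markers summed to 64.2, 44.5, 32.8 and 17.1 CPM, 5 of 6 passed, and Cnn1 was at 0 in every tumour. Both sums were lower in sEV 3 than in either dinutuximab tumour, and both ranked the tumours with sEV 4 lowest, as Hspb8 and Dnajb1 did. Single markers did not all follow the sums. In sEV 3, Acta1 (0.726 CPM), Ckm (1.11 CPM), Des (2.41 CPM), Rgs5 (19.2 CPM) and Myh11 (0.458 CPM) lay between the dinutuximab tumours. The other markers that passed the filter were lower in sEV 3 than in both dinutuximab tumours. The part of muscle cells in the values of Cryab, Hspb8 and Dnajb1 was not tested.

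**Figure D3:**
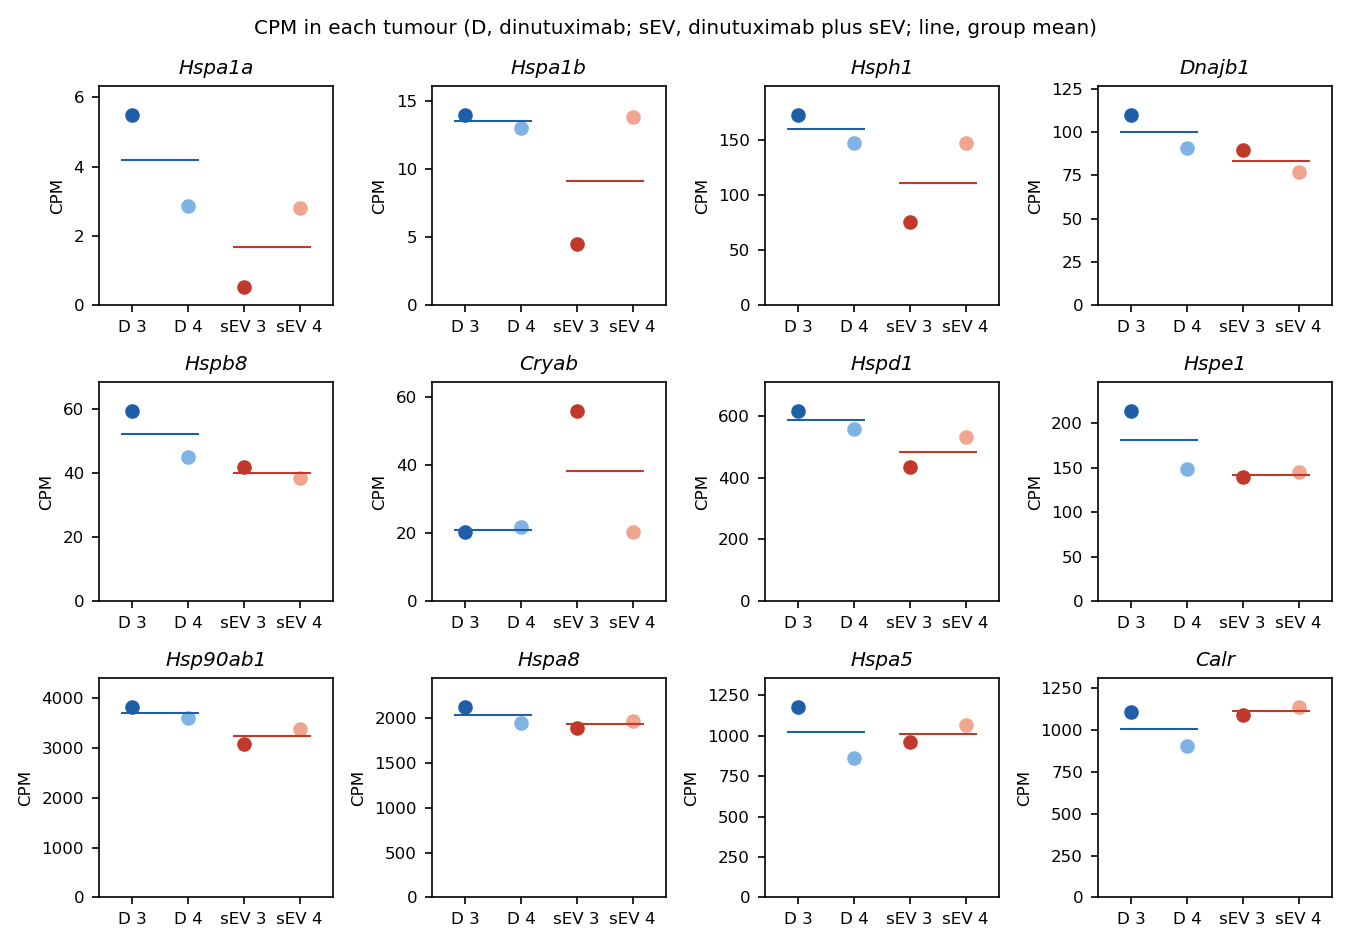
CPM of 12 members in each tumour, with the mean of each group as a line; every axis starts at 0. Hspa1a, Hspa1b and Hsph1 are low and Cryab is high in sEV 3 alone, while Hspd1, Hspe1 and Hsp90ab1 differ by less in proportion.

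The constitutive cytosolic members had a median log2 fold change of -0.06, with 8 of 12 below 0, beside 49.7% of all genes. Hsp90ab1 had 3829 and 3591 CPM in the dinutuximab tumours and 3083 and 3377 CPM in sEV 3 and 4; the groups did not overlap and the log2 fold change was -0.20 ± 0.12. Fkbp4, an HSP90 co-chaperone of steroid receptors, had the same order of tumours at 619, 578, 492 and 554 CPM (-0.19 ± 0.13). Hspa4l, an HSP110 family member, had 69.6, 63.6, 48.0 and 54.2 CPM (-0.38 ± 0.14), with the lowest p of any member (adjusted p = 0.804 in edgeR). In these 3 genes sEV 3 was the lowest tumour and dinutuximab 3 the highest.

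Hspa8, which carries out most routine HSP70 work, had 2132, 1949, 1896 and 1976 CPM, and the groups overlapped (-0.08 ± 0.12). Hspa2, an HSP70 best known from the testis, was the member of this class that did not overlap upward, with 38.0 and 37.4 CPM against 40.8 and 45.5 CPM (0.20 ± 0.14). The other 7 members, Hspa4, Hspa12a, Dnaja2, Dnajb2, Dnajb6, Stip1 and Ahsa1, lay between -0.10 and 0.06 with overlapping groups. Counts are uncertain for the 10 of 39 members whose transcript matches another gene or pseudogene at 95% or more over at least 200 bases: Hspa1a, Hspa1b, Hsp90aa1, Hspb1, Dnaja1, Hspa8, Dnajb6, Ahsa1, Hspd1 and Hspe1.

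The 3 mitochondrial members were all lower in both sEV tumours than in both dinutuximab tumours, beside 16.5% of all genes. Their median was -0.28, and none passed the test. Hspd1, the HSP60 barrel of the mitochondrial matrix, had 616 and 557 CPM in the dinutuximab tumours and 433 and 532 CPM in sEV 3 and 4 (-0.28 ± 0.14). Hspe1, its HSP10 lid, had 214, 148, 139 and 145 CPM (-0.35 ± 0.18). In Hspe1 dinutuximab 3 was high and the other 3 tumours lay close to each other; without dinutuximab 3 the value was -0.06. Hspa9, the mitochondrial HSP70 that pulls proteins through the inner membrane, had 1041, 1066, 959 and 964 CPM (-0.13 ± 0.12). Hspd1 and Hspe1 share 112 exon bases on opposite strands and 1 promoter region, so they are not independent readings.

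The ER members had a median of -0.05, with 7 of 10 below 0, beside 49.7% of all genes. No member of this class was lower without overlap, beside 16.5% of all genes, and 1 was higher, beside 18.1%. Hspa5 (BiP), the ER HSP70 and a common marker of ER stress, had 1180, 865, 960 and 1066 CPM in dinutuximab 3, dinutuximab 4, sEV 3 and sEV 4. Both sEV tumours lay between the 2 dinutuximab tumours, and the log2 fold change was -0.01 ± 0.16. Pdia6 (824, 612, 668 and 682 CPM; -0.09 ± 0.16), a disulfide isomerase, had the same pattern. In this class dinutuximab 3 was the highest tumour for 7 of 10 members and dinutuximab 4 the lowest for 6 of 10, beside 24.9% and 26.5% of all genes.

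Pdia4, another disulfide isomerase, had 466, 361, 355 and 406 CPM (-0.12 ± 0.16). Hsp90b1 (GRP94), the ER HSP90, had 725, 652, 586 and 666 CPM (-0.14 ± 0.13). Calr (calreticulin), a lectin chaperone that also loads MHC class I molecules, had 1109, 905, 1088 and 1139 CPM (0.14 ± 0.14), with overlapping groups. Hspa13, a microsomal HSP70 relative, was 67.0 and 61.9 CPM against 67.6 and 70.9 CPM (0.10 ± 0.13), with sEV 3 barely above dinutuximab 3. Canx, Dnajb9, Dnajb11 and Dnajc3 lay between -0.07 and 0.13 with overlapping groups.

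The heat shock factors did not move together. Hsf1 had 66.1, 73.7, 50.8 and 72.6 CPM (-0.18 ± 0.18), so it too was low in sEV 3 alone. Hsf2 had 26.9, 25.0, 26.8 and 28.7 CPM (0.10 ± 0.15).

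**Figure D4:**
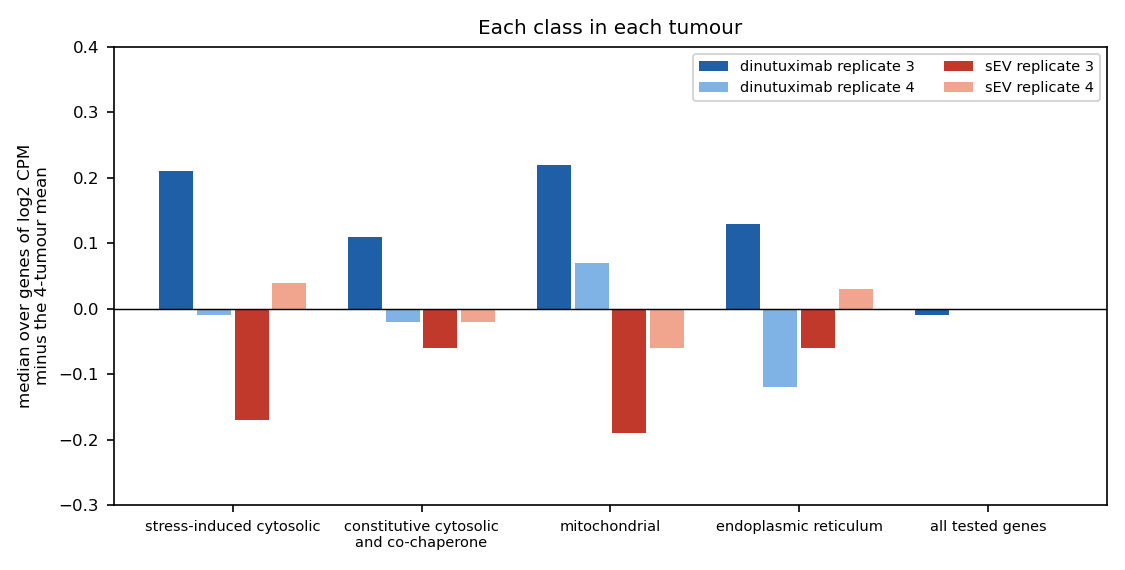
Median over the members of each class of log2 CPM minus the mean of the 4 tumours, with all tested genes at the right. The stress-induced bars run from 0.21 in dinutuximab 3 to -0.17 in sEV 3, with dinutuximab 4 and sEV 4 at -0.01 and 0.04.

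The members were not placed evenly over the 4 tumours. Dinutuximab 3 was the highest tumour for 25 of 39 members and sEV 3 the lowest for 19, beside 24.9% and 28.6% of all genes. For the stress-induced class, the median of log2 CPM relative to the 4-tumour mean was 0.21 in dinutuximab 3 and -0.17 in sEV 3, against -0.01 in dinutuximab 4 and 0.04 in sEV 4. For the mitochondrial class the same values were 0.22, 0.07, -0.19 and -0.06, in dinutuximab 3, dinutuximab 4, sEV 3 and sEV 4, and for the ER class 0.13, -0.12, -0.06 and 0.03.

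With 1 tumour left out at a time, the stress-induced median stayed below 0, from -0.27 to -0.08 (the latter without sEV 3). It was -0.38 with Dnaja1, Chordc1 and Hsp90aa1 counted as constitutive, and -0.18 with Stip1, Ahsa1, Fkbp4 and Hspa4l counted as stress-induced, which left the constitutive median at 0.00. With 1 tumour left out the mitochondrial median also stayed below 0, from -0.38 to -0.15. The constitutive median ran from -0.12 to 0.00 and the ER median from -0.17 to 0.11, where 0.00 and 0.11 were the values without dinutuximab 3. A set of 5 genes on which reads of ribosomal RNA pile up held 5.8% and 6.06% of the counts in the dinutuximab tumours and 4.85% and 4.13% in sEV 3 and 4. Without them the 4 class medians were again -0.22, -0.06, -0.28 and -0.05.

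**Figure D5:**
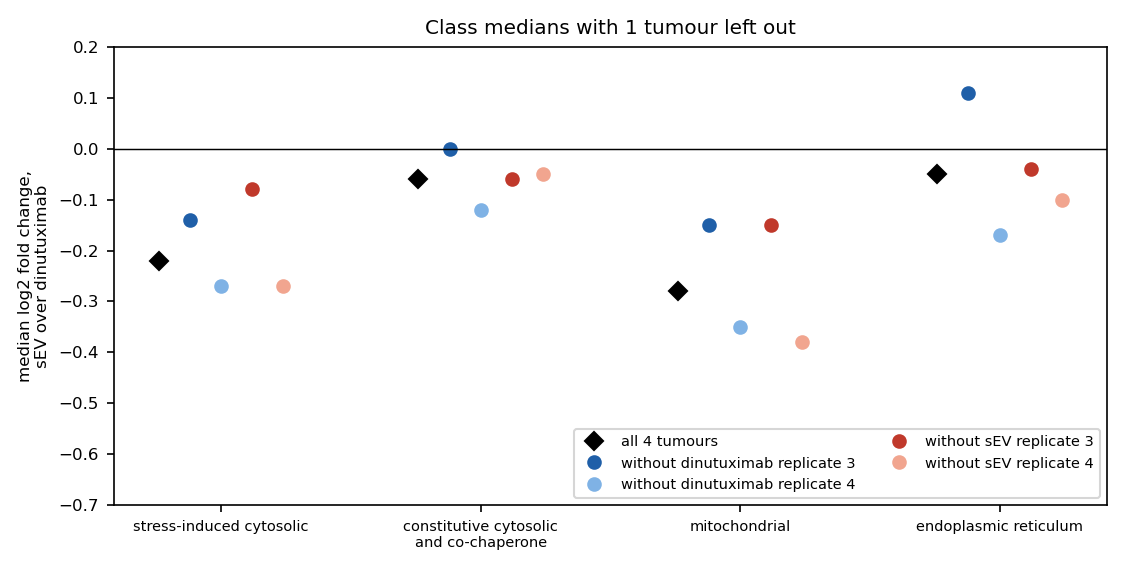
Median log2 fold change of each class with all 4 tumours (diamond) and with each tumour left out (circles). The ER median changes sign, to 0.11, without dinutuximab 3, and the stress-induced median shrinks to -0.08 without sEV 3.

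Grouped by promoter letters in place of class, the 13 members with a 2-unit heat shock element had a median log2 fold change of -0.28 and a range of -1.31 to 0.02, and 12 of 13 lay below 0. The 6 with an ER stress element had a median of -0.06 (-0.14 to 0.14), and the 13 with neither had a median of -0.04 (-0.38 to 0.20). Tumour sEV 3 was the lowest of the 4 for 9 of the 13 members with a heat shock element, for 2 of the 6 with an ER stress element and for 3 of the 13 with neither. Among all genes, 49.7% lay below 0 and sEV 3 was the lowest tumour for 28.6%. The 13 include Hspa1a and Hspa1b, with nearly identical promoters and transcripts, and Hspd1 and Hspe1, which share a promoter region. All of these were lowest in sEV 3, and the genes of such a pair are not independent readings. Genes outside the list that hold the element were not read for comparison. The groups by promoter letters follow the classes closely and were not tested. Dnajb1 held no 2-unit element in its windows, and Hsp90aa1 and Cryab had no window to read.

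Other genes of the folding network were read from lists of their own, and 0 of their genes passed the adjusted threshold. The 4 small heat shock proteins outside the member list that could be tested had a median of 0.64 (0.28 without sEV 3, and 0.27 with a filter of 1 CPM in 2 tumours), and sEV 3 was the highest tumour for all 4, beside 28.9% of all genes. Hspb7, a small heat shock protein of muscle, had 2.34, 2.54, 28.7 and 3.12 CPM (2.70 ± 0.82; adjusted p = 0.699 in edgeR), so that its difference, like that of Cryab, came from sEV 3; without that tumour it was 0.35. In the other cytosolic HSP70 and HSP90 machinery, 13 of 20 tested genes lay below 0, beside 49.7% of all genes. The median of the 20 genes was -0.03. Among them Ppid, an HSP90-binding cyclophilin, was low in sEV 3 (145, 122, 83.5 and 131 CPM) and Fkbp5, a glucocorticoid-responsive HSP90 co-chaperone, was high there (118, 134, 203 and 120 CPM).

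The 14 subunits of the CCT chaperonin and prefoldin, which fold actin and tubulin, had a median of -0.04. Dinutuximab 3 was the highest tumour for 11 of them, beside 24.9% of all genes. The 9 tested other mitochondrial chaperones and proteases had a median of -0.03; Lonp1, the matrix protease, was 196 and 202 CPM against 155 and 169 CPM (-0.30 ± 0.13; adjusted p = 0.884 in edgeR). The 18 other ER folding genes had a median of -0.15. At an unadjusted edgeR p under 0.05, 2 were lower and 1 was higher, beside 3.10% and 2.47% of all genes. Ero1l, the oxidase that feeds disulfide bond formation, had 350, 258, 147 and 219 CPM (-0.73 ± 0.21), and Dnajc10, an ER reductase, had 112, 119, 156 and 147 CPM (0.39 ± 0.13).

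The unfolded protein response list had a median of -0.32. At an unadjusted edgeR p under 0.05, 4 of 10 genes were lower, beside 3.10% of all genes. Asns, asparagine synthetase, had 113 and 130 CPM against 51.9 and 66.6 CPM (-1.04 ± 0.16; adjusted p = 0.36 in edgeR). Trib3, a pseudokinase, had 24.4 and 25.8 CPM against 13.1 and 13 CPM (-0.94 ± 0.16). Chac1, a glutathione-degrading enzyme, had 2.42 and 4.46 CPM against 0.955 and 0.901 CPM (-1.88 ± 0.40). These 3 genes are known targets of Atf4, they were low in both sEV tumours, and their values stayed below 0 with any 1 tumour left out. Atf4 itself was at 308, 294, 295 and 254 CPM (-0.13 ± 0.13), and Hspa5, as given above, was at -0.01. The 5 endothelial markers, all of which passed the filter, were also lower in the sEV group, with sums of 111, 118, 91.7 and 83.6 CPM, and their part in these values was not tested.

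The 7 tested other heat shock regulators and heat-inducible genes had a median of -0.12, which was 0.02 without dinutuximab 3 and -0.25 without dinutuximab 4. Ier5, which acts on Hsf1, had 69.0, 73.8, 62.5 and 48.3 CPM (-0.37 ± 0.16). Tumour sEV 4 was the lowest for Ier5, as for Hspb8 and Dnajb1 and unlike Hspa1a.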

How the data were processed

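The files hold unnormalized read counts by Ensembl gene ID, deposited by the authors for the whole series and again for each sample, and the 173728 values of the first equalled those of the second. STAR, SAMtools, HTSeq and the mm10 build are named per the submitters' processing notes. Versions, annotation, counting mode and strand setting are not given in the sources used here. Libraries were made with a stranded mRNA kit and run on 2 lanes each, per the labels' protocols. Every line names a gene ID; GENCODE M21 (GRCm38) gave symbols for 42548 of 43432 IDs, and the other 884 stayed in the tests. Hspa14 was not analysed here, and some other list genes are not reported here.

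The fit used edgeR 4.0.16 under R 4.3.3 (filterByExpr, TMM factors of 0.9758 to 1.024, quasi-likelihood F test, group as the only term). That kept 13823 genes, with Benjamini-Hochberg adjustment over all of them and a threshold of 0.05. CPM use TMM-adjusted library sizes; levels per kilobase divide by the union of exon bases. Errors beside log2 fold changes are SEs worked back from the F test, as the absolute log2 fold change over the square root of F. An exact two-sided permutation test of 2 tumours against 2 cannot give a p below 0.333 and was not run. Upper limits at 0 counts rest on 3 counts per library and cover counting error only.

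The members and lists were chosen with earlier results of these data known, so lists are described by counts and medians. Values in every tumour are given for the 4 members of lowest p and the 3 of highest length-scaled level in each class, both HSP70 paralogs and both factors. Up to 3 genes of lowest p are named from each other list, and Atf4 and further markers were added after values were seen. Promoter stretches were to be shown for Hspa1a, Hspa1b, Hspa8, Dnajb1, Hsph1, Hspa5 and up to 4 other members. None is shown for Hspa8 or Dnajb1, and proteins were not used here.

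Alternatives were DESeq2 1.42.0, limma-voom (limma 3.58.1), 2 scalings, 2 filters, the tumour number as a block, summed Hspa1a and Hspa1b, 2 class assignments and each tumour left out. Leaving out genes that collect ribosomal RNA reads was chosen after seeing the data.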

Additional observations from a re-analysis of the deposited data

How the results depend on the processing

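The number of all genes called depended on the fit: 0 in either direction as reported, and 17 higher and 38 lower with DESeq2. With no filter on low counts, 22003 genes were tested and it was 107 and 155. It was 21 and 46 with the tumour number as a replicate block. With 1 tumour left out it ran from 0 to 160 higher and from 0 to 156 lower. The labels do not say what the number means. Over the tested genes, the log2 difference between tumours 3 and 4 in the dinutuximab group correlated at 0.117 with that in the sEV group. The block left 0 members called and moved no class median by more than 0.01. Members called were 3 with no filter (Hspa1a, Hsph1 and Cryab, adjusted p 0.0115, 0.0441 and 0.000702), and 0 to 4 with 1 tumour left out; 4 only without sEV 4. A lone tumour is then assumed to vary like the other group. In the fits without a filter, without sEV 3 and without sEV 4, edgeR estimated 1 common spread for genes of like abundance.

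Of 39 members, 20 had values on both sides of 0 over the alternatives tried and 19 did not. With all 4 tumours kept, the sign varied for 3: Hspa5, at 0.03 with total-count scaling, and Hspa4 and Dnajb2, both at 0.00 as reported and at 0.03 and 0.04 with that scaling but at -0.01 with the filter of 1 CPM. The others changed sign with 1 tumour left out. Over those fits the ranges were -1.59 to 0.03 for Hspa1b, -0.20 to 0.01 for Hsp90aa1, -0.07 to 1.41 for Cryab, -0.23 to 0.11 for Dnajb4, and -0.31 to 0.11 for Bag3. They were -0.26 to 0.03 for Chordc1, -0.04 to 0.15 for Hspa12a, -0.04 to 0.08 for Dnajb6, -0.24 to 0.02 for Stip1, and -0.19 to 0.05 for Ahsa1. ER members ranged from -0.22 to 0.23 (Hspa5), -0.10 to 0.32 (Dnajb9), -0.12 to 0.01 (Dnajb11), -0.19 to 0.05 (Dnajc3), -0.29 to 0.07 (Pdia4), -0.29 to 0.14 (Pdia6) and -0.15 to 0.05 (Canx). Hsf1 ranged from -0.46 to 0.05 and Fkbp5 from -0.08 to 0.68. Hspa4 ranged from -0.06 to 0.05 and Dnajb2 from -0.16 to 0.15. Of members that kept their direction, Hspb8 ranged from -0.57 to -0.17, Dnajb1 from -0.40 to -0.12, Hspd1 from -0.44 to -0.15 and Hspe1 from -0.59 to -0.06. List medians ranged from 0.28 to 0.90 for other small heat shock proteins, from -0.25 to 0.02 for other heat shock regulators, from -0.14 to 0.08 for CCT and prefoldin, from -0.24 to 0.03 for other ER genes, and from -0.51 to -0.20 for the unfolded protein response, which was at -0.28 with total-count scaling. The cause of these changes was not tested beyond the tumour left out. Depth limits Hspa1a and Hspb1, with as few as 14 and 16 counts in a tumour.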

Other observations

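Immediate early genes, which answer within minutes to growth signals or stress, lay mostly lower in the sEV group. Of 12 genes, 11 had a log2 fold change below 0, beside 49.7% of all genes, and the median was -0.33. At an unadjusted edgeR p under 0.05, 5 were lower, beside 3.10% of all genes, though 0 passed the adjusted threshold. Egr1, a zinc finger factor, had 26.1 and 32.4 CPM in dinutuximab 3 and 4 and 14.1 and 15.5 CPM in sEV 3 and 4 (-0.98 ± 0.17). Atf3, a stress-responsive factor, had 21.2, 16.7, 7.79 and 9.84 CPM (-1.10 ± 0.21), and Nr4a1, an orphan nuclear receptor, had 10.8, 11.5, 6.46 and 7.66 CPM (-0.66 ± 0.21). Unlike Hspa1a, Hspa1b and Hsph1, these 3 genes were low in both sEV tumours, and both groups stayed apart.

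The red blood cell markers summed to 31.1 and 18.6 CPM in the dinutuximab tumours and 61.2 and 37.8 CPM in sEV 3 and 4, and the T and NK cell markers to 2.07, 2.87, 1.45 and 5.82 CPM. The macrophage markers summed to 1025, 1073, 1196 and 1203 CPM, the fibroblast markers to 625, 614, 885 and 739 CPM, and the endothelial markers to 111, 118, 91.7 and 83.6 CPM, with all 5 endothelial markers below 0 and a median of -0.48. The fibroblast markers did not move together. Col1a1 had 26.5 and 33.6 CPM in the dinutuximab tumours and 21.5 and 22.7 CPM in sEV 3 and 4. Col1a2 had 10 and 14.9 CPM against 6.23 and 2.18 CPM. In contrast, Col3a1, Dcn and Pdgfra were higher in both sEV tumours than in both dinutuximab tumours. The part of all these cell types in the lower immediate early genes was not tested. Tumour sEV 3 was thus highest in the sum of red cell markers and lowest in the sum of T and NK cell markers. Of the 5 T and NK cell markers, 3 passed the filter, and sEV 3 was the lowest tumour for those 3. The others differed: Ncr1 was highest in sEV 3 (0.42 CPM), and Klrb1c was lowest in sEV 4 (0.173 CPM). Counts in sEV 3 were small, from 1 for Cd3e to 14 for Nkg7.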
